A study of Mus musculus with 3 samples.

Results

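The 10 genes described here are Il10, the genes of the receptors for interleukin 10 (Il10ra and Il10rb) and for interleukins 4 and 13 (Il4ra and Il13ra1), and 5 genes used as markers of macrophages exposed to type 2 cytokines (Retnla, Chil3, Mrc1, Clec10a and Mgl2). They were taken by symbol from the 32285 annotated genes of the deposited matrices, each symbol occurring once, and all 10 had enough UMIs (unique molecular identifiers, which mark single captured transcripts) in macrophages to be compared. The rule lists names and uses no measured value, although earlier results of these data were known when the list was made.

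The measurements are droplet single-cell transcriptomes of damaged tibialis anterior muscle, taken 4 days after barium chloride injury, which all 3 groups received. The groups are young mice given PBS, old mice given PBS and old mice given recombinant METRNL (rMETRNL), the secreted protein Meteorin-like; all mice were C57/BL6J. Each group is 1 library made from triplicate muscles pooled before capture, so that no value has a biological replicate, no test was possible, and age or treatment cannot be told apart from the library. Below, the age contrast divides old PBS by young PBS, and the treatment contrast divides old rMETRNL by old PBS, so both rest on the same old PBS library.

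The libraries held 12168, 12568 and 14012 cell barcodes in the order young PBS, old PBS, old rMETRNL, which is the order of every triplet of values below, and 218059089, 179295668 and 228966697 UMIs. Any pair of libraries shared 58 to 80 barcodes. After filtering, 10318, 10019 and 11469 cells fell into 31 clusters, of which 8 were called macrophage/monocyte-like from marker genes. They held 6043, 5785 and 6585 cells, with median depths of 14255, 15032 and 14613 UMIs per cell. Csf1r, the receptor for macrophage growth factors, was at 684, 707 and 599.9 CPM (UMIs of the gene per 1000000 UMIs of the class in a library) in these cells against 14.6 to 18.7 CPM in fibro-adipogenic progenitor-like (FAP-like) cells. Their neutrophil markers summed to 54.5 to 77.0 CPM, most of it Csf3r, with Ly6g at 0 in both old libraries. Of these 7 markers, 4 had enough UMIs to be compared. By the call rule given below, S100a8 was higher and Mmp9 lower with age, and Cxcr2 and Mmp9 were higher with treatment. Of 6 genes listed for T and regulatory T cells, 3 had enough UMIs, and Il2ra was called higher with treatment. The eosinophil, basophil and mast cell markers of the macrophage/monocyte-like cells summed to 2.13 to 5.19 CPM, with Epx at 0 in every library.

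Interleukin 10 is a cytokine that restrains inflammatory gene expression in macrophages, acting through a receptor of a ligand-binding chain (Il10ra) and a shared chain (Il10rb) that signals to STAT3. Interleukins 4 and 13 act through Il4ra, paired with Il2rg or with Il13ra1, and signal to STAT6, which in mouse macrophages induces a programme long used to define alternative activation. In injured muscle, macrophages pass from an early inflammatory to a later reparative state, and both pathways are among the signals described for that passage.

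Macrophage/monocyte-like cells held most UMIs of 9 of the 10 genes. Over the 3 libraries, their part of all UMIs in kept cells was 98.3% for Retnla, 96.5% for Mrc1, 95.9% for Il10, 95.7% for Chil3, 90.5% for Il10ra, 88.1% for Il10rb, 86.2% for Clec10a, 68.8% for Mgl2 and 61.0% for Il4ra. Il13ra1 was the exception, with 35.9% of its UMIs in macrophages and 49.9% in FAP-like cells. Dendritic-like cells held 10.8% of the Clec10a and 18.2% of the Mgl2 UMIs.

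**Figure D1:**
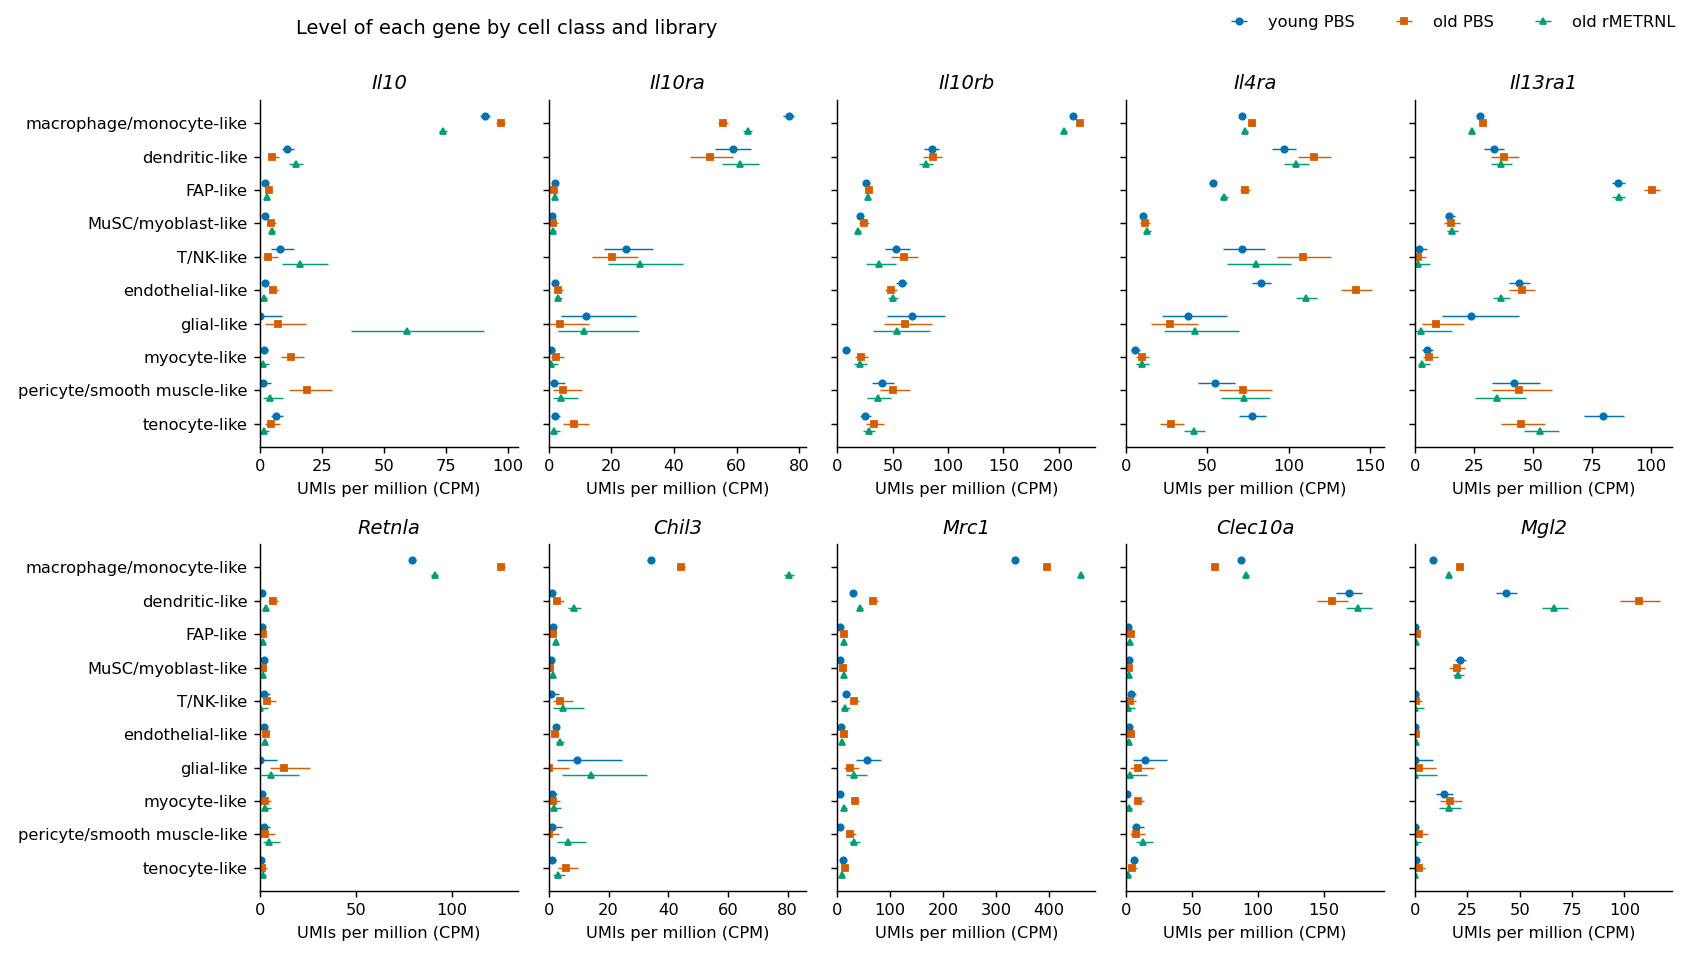
Level of each of the 10 genes by cell class, in CPM on a linear axis that differs between genes, with 1 point for each library and bars for the exact 95% Poisson interval (counting error only); the B-like cluster of 4 to 20 cells per library is left out. The macrophage/monocyte-like points lie highest for Il10, Il10ra, Il10rb, Retnla, Chil3 and Mrc1, the FAP-like points for Il13ra1 (86.3 to 100.5 CPM), and the dendritic-like points for Clec10a (156 to 176 CPM) and Mgl2 (43.4 to 107 CPM).

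Between libraries, few of the 10 genes differed much in macrophages. A ratio was called where it was past 1.5-fold either way and its exact 95% interval, conditional on the sum of the 2 counts, left out 1; these intervals cover counting error only, and since UMIs of 1 cell are not independent and mice were pooled, they are narrower than the error between animals would be. In the age contrast Retnla (ratio 1.58) and Mgl2 (2.46) were called higher and none lower, 2 of 10, where the same rule called 11.3% of all 14324 genes with at least 50 UMIs (5.42% higher and 5.85% lower). In the treatment contrast only Chil3 was called (1.82, higher), 1 of 10, against 7.97% of genes (4.91% higher and 3.06% lower). In old rMETRNL over young PBS, Chil3 (2.36) and Mgl2 (1.84) were called higher, 2 of 10 against 4.82%. With so few members, these counts do not stand apart from the background. The median log2 ratio of the members was 0.11 for age and -0.09 for treatment, beside -0.01 and 0.05 over all genes.

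**Figure D2:**
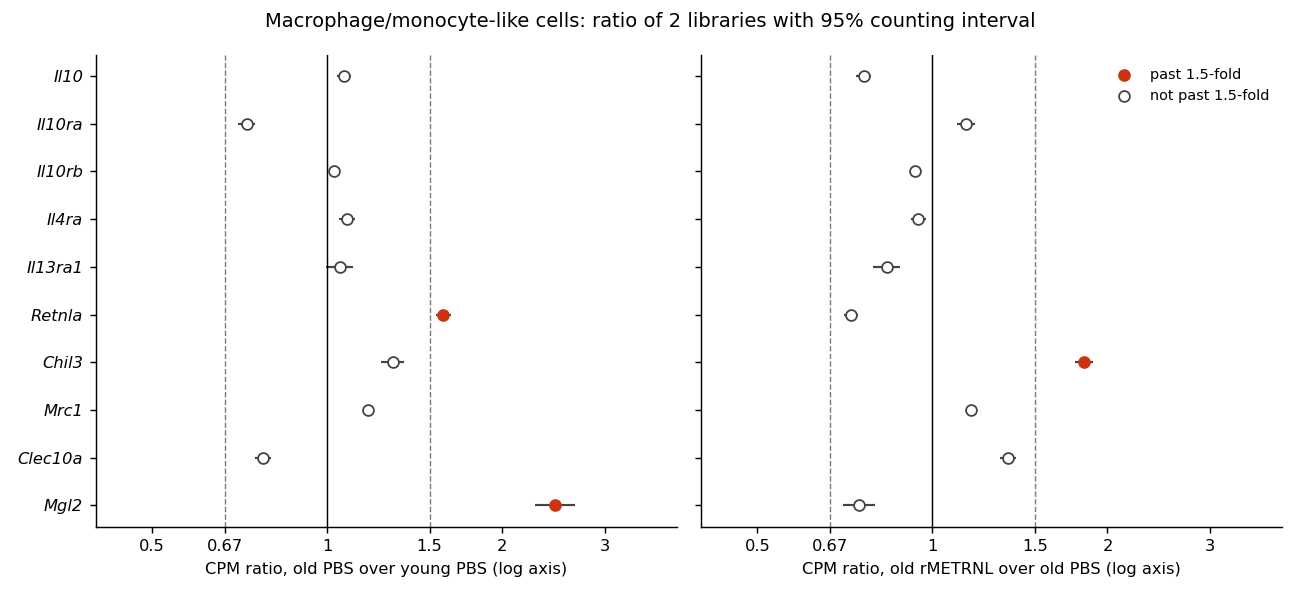
Ratios of CPM between libraries in macrophage/monocyte-like cells for the 10 genes on a log axis, with exact 95% intervals (counting error only) and the 1.5-fold limits. Mgl2 (2.46) and Retnla (1.58) lie beyond the limit in the age contrast and Chil3 (1.82) in the treatment contrast, while Il10rb stays between 0.935 and 1.03.

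To read the genes within macrophages, the class was divided into 12 sub-clusters without using the 10 genes, and these are called by lists of marker genes. Sub-cluster 0 took the name of a list with Il1a, Slc7a11 and Ccrl2 (Ccrl2 and Il1a were among its 10 leading genes by fold). Sub-cluster 1 took that of an interferon list, with Ifit3 and Cxcl10 among its leading genes. Hes1, Txnip and Sox4, which are not in that list, were among them too. At sub-clustering resolution 1.0 none of these last genes was among the leading genes of the interferon sub-clusters. All cells of sub-cluster 1 are called interferon cells below. Sub-cluster 2 took the name of a list with Spp1 and Gpnmb, which both led it. Sub-clusters 3 and 10 took the name of a list of resident-type genes with Lyve1, Cd163 and Cbr2, with Cd163 and Cbr2 among the leading genes of sub-cluster 3 and Cd163 and Vsig4 among those of sub-cluster 10. Sub-cluster 5 had Ly6c2, a marker of recently arrived monocytes, among its leading genes. Sub-clusters 6 and 7 were cycling cells, and sub-clusters 4, 8, 9 and 11 were left unnamed. Their shares differed between libraries: interferon sub-cluster 1 made up 28.8%, 7.54% and 18.2% of macrophages, sub-cluster 0 made up 23.7%, 32.4% and 16.9%, and sub-cluster 3 made up 8.87%, 14.9% and 14.8%. Levels over all macrophages therefore mix the levels of these populations with their shares. Sub-cluster 11 (35, 2 and 5 cells) entered no ratio. Within single sub-clusters the call rule passed 5.45% to 13.2% of genes in the age contrast and 4.48% to 12.8% in the treatment contrast.

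Il10 (ENSMUSG00000016529, chr1:131019845-131024974, plus strand, GRCm38) encodes the cytokine itself. Its level in macrophages was 90.7 CPM [95% interval 88.8, 92.6] for young PBS, 96.9 [95, 98.9] for old PBS and 73.8 [72.2, 75.4] for old rMETRNL. Between ages the ratio was 1.07 [1.04, 1.10] and the treatment ratio 0.761 [0.739, 0.784], neither past 1.5-fold. When per-cell CPM values were averaged, which weights cells alike whatever their depth, the treatment log2 ratio was -0.64 and called, against -0.39. After each cell was thinned to 2000 UMIs to even out depth, 11.7%, 12.2% and 10.4% of macrophages had an Il10 UMI, against 0.83%, 0% and 1.08% of the MuSC/myoblast-like cells (muscle stem cells and myoblasts), whose unthinned median depths were 27435, 25650.0 and 27943 UMIs. The thinned 0% was 0 of 179 cells, which allows a share of up to 1.68% (3 cells of the total, the limit used for each share of 0). Thinning left out 44, 70 and 53 macrophages as too shallow, and 29.3%, 28.7% and 28.0% of macrophages had an Il10 UMI before it.

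Il10 UMIs were concentrated in few cells. The top 1% of macrophages held 22.5%, 24.4% and 24.1% of them, against 4.09%, 3.94% and 4.28% for the receptor chain Il10rb. Cells with at least 10 Il10 UMIs numbered 244, 279 and 209, and 140, 168 and 98 of these lay in sub-cluster 0. The ratio of their shares was 1.19 [1.002, 1.42] for age and 0.658 [0.547, 0.790] for treatment. Among the remaining macrophages Il10 stood at 46.6, 41.6 and 40.2 CPM, with ratios of 0.891 [0.853, 0.931] between ages and 0.967 [0.926, 1.01] between treatments, a split made after seeing the data and on the counts of Il10 itself, so that these ratios are a description.

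The Il10 level differed between macrophage sub-clusters more than between libraries. It was 215, 189 and 197 CPM in sub-cluster 0, 198, 226 and 136 CPM in Lyve1/Cd163/Cbr2 sub-cluster 3, and 212, 261 and 99.2 CPM in sub-cluster 10. It was 84.1, 69.3 and 105 CPM in the Ly6c2-high cells and 30.1, 35.2 and 22.6 CPM in the interferon cells. In the treatment contrast Il10 was called lower in 4 of 10 sub-clusters, down to 0.380 in sub-cluster 10, and higher in 2, up to 1.78 in sub-cluster 4. With the sub-cluster shares held equal, the treatment ratio was 0.911 and the age ratio 0.955.

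**Figure D3:**
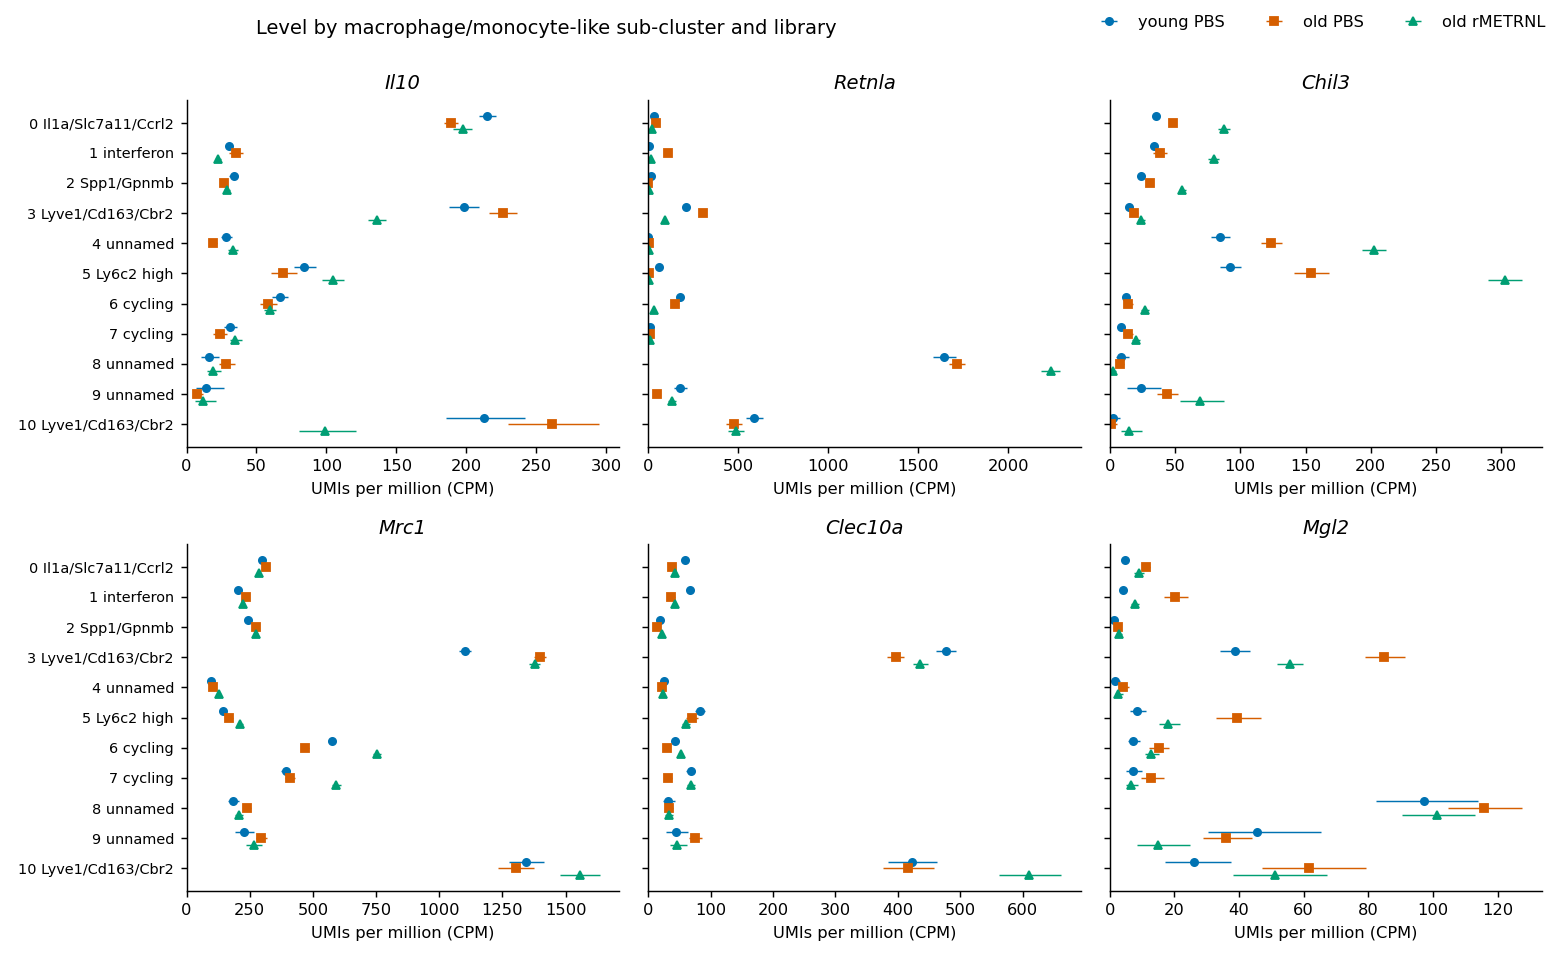
Level of 6 of the genes in 11 macrophage sub-clusters, in CPM on a linear axis that differs between genes, with 1 point for each library and exact 95% Poisson intervals (counting error only). Il10 is highest in sub-clusters 0, 3 and 10 in both PBS libraries and in 0, 3 and 5 in old rMETRNL, Mrc1 and Clec10a in sub-clusters 3 and 10, Chil3 in sub-clusters 4 and 5, and Retnla in sub-cluster 8 (1644 to 2235 CPM).

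The ligand-binding chain Il10ra (ENSMUSG00000032089, chr9:45253837-45269149, minus strand) was at 76.6, 55.7 and 63.5 CPM in macrophages. Its age ratio of 0.727 [0.702, 0.753] and treatment ratio of 1.14 [1.10, 1.18] were not past 1.5-fold. Il10ra was highest in the interferon sub-cluster, at 125, 141 and 114 CPM, and was at 26.1 to 28.6 CPM in sub-cluster 8. The interferon cells made up 28.8% of macrophages in young PBS and 7.54% in old PBS. With shares held equal the Il10ra age ratio was 0.929 and its treatment ratio 0.998. Within sub-clusters the age ratio was below 1 in 8 of 11, from 0.688 in sub-cluster 4 to 1.13 in the interferon cells, without a call. The part of the shares in the Il10ra ratios was not tested. Outside macrophages, Il10ra was at 51.6 to 61.0 CPM in dendritic-like cells, 20.1 to 29.1 CPM in T/NK-like cells and 1.51 to 2.02 CPM in FAP-like cells.

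The shared chain Il10rb (ENSMUSG00000022969, chr16:91406164-91425834, plus strand) was the most even member. It was at 213, 219 and 205 CPM in macrophages, with ratios of 1.03 [1.01, 1.05] between ages and 0.935 [0.917, 0.952] between treatments, and it was called in none of 11 sub-clusters in either contrast. Among its 50-base transcript windows, 13.6% were shared with the overlapping gene model Gm21970, so that the counting of its reads is uncertain. Cells with UMIs of both chains made up 52.4%, 43.7% and 48.0% of macrophages and 20.9%, 23.0% and 19.9% of dendritic-like cells. In FAP-like cells, which are deeper, they made up 3.04%, 1.53% and 2.196%.

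None of the 8 genes listed for signalling below the interleukin 10 receptor was called in either contrast, with a median log2 ratio of 0.29 for age and -0.35 for treatment. Etv3, a transcriptional repressor of this pathway, was at 162, 208 and 153 CPM, and Stat3, its main transcription factor, at 141, 189 and 139 CPM. Among 5 regulators of Il10 transcription, Crem, a factor responsive to cyclic AMP, was called higher with age (72.7, 113 and 60.1 CPM, ratio 1.55) and lower with treatment (0.531). Ahr, the aryl hydrocarbon receptor, was called lower with treatment (24.8, 35.5 and 23.4 CPM, ratio 0.658). Atf3, a stress-induced factor, was at 491, 494 and 573 CPM and Maf at 347, 267 and 350.1 CPM, without a call.

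Messages for the type 2 cytokines were rare in these suspensions. Over all kept cells Il4 had 196, 16 and 39 UMIs in 18, 12 and 35 cells, and a single young PBS cell of the T/NK-like class held 89 of them. Il13 had 94, 72 and 2 UMIs in 16, 7 and 2 cells, and Il5 212, 105 and 38 UMIs in 12, 8 and 3 cells. T/NK-like cells held 208, 102 and 36 of the Il5 UMIs and 63, 68 and 0 of the Il13 UMIs. In macrophages Il4 had 26, 10 and 34 UMIs, called lower with age (0.382) and higher with treatment (2.99) on those counts. Of 8 eosinophil, basophil and mast cell markers, 3 had enough UMIs in macrophages. Cpa3 (299, 18 and 35 UMIs) and Ccr3 (123, 76 and 146 UMIs) were called lower with age and Siglecf (61, 104 and 96 UMIs) higher, and Ccr3 was called higher with treatment. The part of such cells in the Il4 values was not tested. Il25 had 0 UMIs in macrophages and Il13 and Il5 at most 5.

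The alarmin Il33, which drives type 2 cytokine release from lymphoid cells, was carried mainly by FAP-like cells, at 198, 465 and 300.2 CPM. In macrophages it was at 1.23, 2.63 and 1.77 CPM, called higher with age (2.15). Tslp, another such alarmin, was at 7.95, 7.85 and 10.6 CPM in macrophages, without a call. Il33 in macrophages thus had the same order of libraries as Il33 in FAP-like cells, and how far free RNA from those cells contributed was not tested.

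Il4ra (ENSMUSG00000030748, chr7:125552120-125579474, plus strand), the signalling chain shared by both receptor types, was spread over many classes. It was at 71.5, 77.4 and 73.2 CPM in macrophages, 83.2, 142 and 111 CPM in endothelial-like cells, 96.9, 115 and 105 CPM in dendritic-like cells and 71.5, 109 and 80.2 CPM in T/NK-like cells. It was 53.2, 73.4 and 60.3 CPM in FAP-like and 10.4 to 13.1 CPM in MuSC/myoblast-like cells. The macrophage ratios were 1.08 [1.05, 1.12] for age and 0.946 [0.917, 0.976] for treatment. Among sub-clusters Il4ra was highest in the resident-type sub-clusters 10 (139, 122 and 147 CPM) and 3 (112, 135 and 117 CPM).

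Il13ra1 (ENSMUSG00000017057, chrX:36112110-36171259, plus strand), the chain that binds interleukin 13, had a different distribution. It was at 86.3, 100.5 and 86.4 CPM in FAP-like cells, 79.9, 45.2 and 53.3 CPM in tenocyte-like cells, 27.6, 29.0 and 24.2 CPM in macrophages and 1.16 to 1.76 CPM in T/NK-like cells. The macrophage ratios were 1.05 [0.996, 1.11] for age, an interval that holds 1, and 0.835 [0.791, 0.880] for treatment. In macrophages it was highest in the Ly6c2-high cells (39.3, 42.8 and 38.9 CPM) and in sub-clusters 0 and 10.

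The partner chains divided the classes. Il4ra together with Il13ra1 was found in 51.0%, 49.3% and 49.0% of FAP-like cells, 19.5%, 22.8% and 19.2% of macrophages and at most 0.552% of T/NK-like cells. Il4ra together with Il2rg, the common gamma chain, was found in 5.61%, 4.46% and 5.52% of FAP-like cells, 33.4%, 32.6% and 33.1% of macrophages and 30.9%, 40.9% and 27.9% of T/NK-like cells. These shares are not thinned, and median depths were 21759.5 to 26209.5 UMIs in FAP-like and 5083 to 6047 UMIs in T/NK-like cells. Per class, Il2rg was at 77.7, 63.9 and 70.1 CPM in macrophages, 256, 251 and 284 CPM in T/NK-like cells and 3.72 to 4.94 CPM in FAP-like cells.

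Of 10 genes listed for interleukin 4 and 13 signalling, 9 were measured in macrophages, with a median log2 ratio of -0.08 for age and 0.03 for treatment. Irs2, an adaptor recruited by Il4ra, was called higher with age (90.1, 141 and 96.6 CPM, ratio 1.56), and its treatment ratio was 0.686. Cish, a feedback inhibitor of cytokine signalling, was called lower with treatment (6.65, 9.75 and 6.36 CPM, ratio 0.652). Stat6, the transcription factor of the pathway, was at 49.99, 47.2 and 50.3 CPM, and the decoy receptor Il13ra2 had 0, 1 and 0 UMIs.

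Retnla, Chil3 and Mgl2 were the members with a call in macrophages, and the sequence before their start sites is shown so that the motifs bound by STAT factors can be looked for. The RefSeq table holds the promoters of 6 of the 10 genes (Il4ra, Il13ra1, Retnla, Chil3, Mrc1 and Mgl2) on GRCm38.p6, each from 250 bases before to 50 bases after the start. The spaced palindromes TTCNNNNGAA, the form preferred by STAT6, and TTCNNNGAA, that of other STAT factors, were searched; each reads the same on both strands and no match of one is a match of the other. TTCNNNNGAA was found in 1 of the 6 members (Retnla) and in 6.95% of all 32851 promoters, and TTCNNNGAA in 1 of the 6 (Chil3) and in 8.30%. The stretches printed lie at chr16:48842359-48842550 (plus strand) for Retnla, chr3:106167565-106167814 (minus strand) for Chil3 and chr11:70130107-70130328 (plus strand) for Mgl2, and end before the first transcribed base; capitals mark the match, 145 bases before the RefSeq start in Retnla and 172 bases before it in Chil3.
Retnla: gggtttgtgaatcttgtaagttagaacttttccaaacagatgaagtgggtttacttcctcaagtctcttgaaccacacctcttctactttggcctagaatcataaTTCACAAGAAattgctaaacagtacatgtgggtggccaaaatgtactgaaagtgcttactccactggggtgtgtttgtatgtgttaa
Chil3: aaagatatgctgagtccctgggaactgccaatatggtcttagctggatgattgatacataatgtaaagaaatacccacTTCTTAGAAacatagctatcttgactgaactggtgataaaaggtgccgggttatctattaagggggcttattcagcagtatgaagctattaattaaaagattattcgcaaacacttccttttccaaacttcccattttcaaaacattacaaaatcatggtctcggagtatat
Mgl2: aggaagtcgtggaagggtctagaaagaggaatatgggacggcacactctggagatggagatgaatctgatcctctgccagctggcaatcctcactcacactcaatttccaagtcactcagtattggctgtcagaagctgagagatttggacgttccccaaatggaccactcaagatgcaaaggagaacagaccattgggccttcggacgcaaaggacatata
The Mgl2 stretch holds neither spacing. A match is a run of letters in this window and not a measured binding site.

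Retnla (ENSMUSG00000061100, chr16:48842551-48844461, plus strand) encodes RELM-alpha, a secreted protein induced by interleukins 4 and 13. It was at 79.2 CPM [77.5, 81.0] for young PBS, 126 [123, 128] for old PBS and 90.9 [89.2, 92.7] for old rMETRNL. The contrasts gave 1.58 [1.54, 1.63] for age and 0.724 [0.705, 0.744] for treatment, and old rMETRNL stood at 1.15 [1.11, 1.18] of young PBS. The last ratio changed direction with the processing: on the log2 scale it was 0.20, against 0.77 and called when cells were chosen by a marker gate in place of clusters, -0.26 with per-cell CPM averaged and -0.35 with sub-cluster shares held equal. With doublet calls kept, the age log2 ratio was 0.54 in place of 0.66 and no longer past the limit, and when per-cell CPM values were averaged the treatment log2 ratio was -1.02 and called.

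These levels rested on few cells. Macrophages with at least 10 Retnla UMIs numbered 60, 98 and 76, or 0.993%, 1.69% and 1.15% of the class, and held 95.6%, 96.3% and 96.3% of its Retnla UMIs. Their median was 47.5, 67.0 and 45.0 UMIs, and the highest single cells held 1453, 883 and 1733. The ratio of their shares was 1.71 [1.22, 2.39] for age and 0.681 [0.498, 0.929] for treatment, intervals much wider than those of the UMI sums. Among the remaining macrophages the level was 3.55, 4.69 and 3.44 CPM, with ratios of 1.32 [1.14, 1.52] and 0.735 [0.639, 0.845]. This split was made on the counts of Retnla itself, so that these ratios are a description. In thinned cells 1.65%, 2.82% and 1.76% of macrophages had a Retnla UMI, against 0.28%, 0.56% and 0.27% of MuSC/myoblast-like cells, and before thinning 3.72%, 5.84% and 4.92% of macrophages did.

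**Figure D4:**
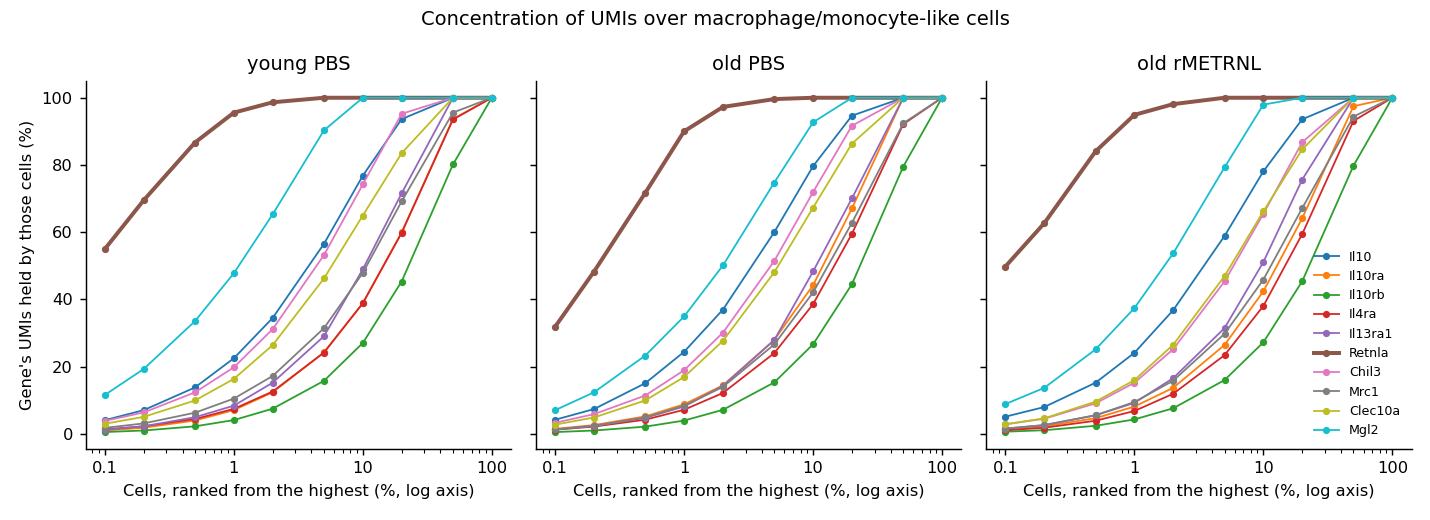
Share of each gene's macrophage UMIs (vertical axis, percent) held by the macrophages with the highest counts (horizontal axis, percent of cells, log scale), with 1 panel for each library and 1 line for each gene. The Retnla lines stand at 90.0% to 95.6% at the first 1% of cells, while 1% of cells hold 3.94% to 4.28% of Il10rb UMIs.

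The Retnla-rich cells fell mainly into 3 sub-clusters. Sub-cluster 8, an unnamed group whose other leading genes were Mmp12, Ear2, Fn1 and Dcstamp, held 14, 41 and 37 of them and was at 1644, 1715 and 2235 CPM. Within it 46.2%, 40.1% and 48.0% of cells had any Retnla UMI. Sub-cluster 8 made up 1.08%, 2.71% and 1.90% of macrophages, the same order of libraries as the Retnla level. The resident-type sub-clusters 3 (210.3, 304 and 93.7 CPM) and 10 (588, 476 and 487 CPM) followed in both PBS libraries, while in old rMETRNL sub-cluster 9 (131 CPM) stood above sub-cluster 3. The age ratio was above 1 in 5 of 11 sub-clusters and called higher in 2 and lower in 3, from 0.0593 in the Ly6c2-high cells to 19.4 in the interferon cells. With shares held equal it was 1.26 for age and 0.620 for treatment.

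Chil3 (ENSMUSG00000040809, chr3:106147554-106167564, minus strand) encodes Ym1, a chitinase-like protein secreted by alternatively activated macrophages and also carried by some monocytes. It was at 34.1 CPM [32.9, 35.3] for young PBS, 44.2 [42.9, 45.5] for old PBS and 80.5 [78.9, 82.2] for old rMETRNL. For age the ratio was 1.30 [1.24, 1.36], the treatment ratio 1.82 [1.76, 1.89], and the ratio of old rMETRNL to young PBS 2.36 [2.27, 2.46]. The share of thinned macrophages with a Chil3 UMI was 6.38%, 7.70% and 13.4%, against 0%, 0% and 0.27% of MuSC/myoblast-like cells (0 of 363 and 0 of 179 in the PBS libraries, which allow up to 0.826% and 1.68%), and before thinning it was 22.6%, 26.2% and 35.2% of macrophages. Cells with at least 10 UMIs numbered 32, 66 and 200, and among the remaining macrophages the treatment ratio was 1.56 [1.49, 1.63]. That split was made on the counts of Chil3 itself, so that the ratio is a description.

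Among the members, Chil3 had the most uniform direction over sub-clusters. Its treatment ratio was above 1 in all 9 sub-clusters with enough UMIs, from 1.29 in sub-cluster 3 to 2.08 in the interferon cells, and was called higher in 7. Its age ratio was above 1 in all 9 too and called higher in 3. The level was highest in the Ly6c2-high cells (92.3, 154 and 302 CPM) and in sub-cluster 4 (84.7, 124 and 202 CPM), whose leading genes were F10, Fabp4 and Slpi. It was 14.6, 18.5 and 23.9 CPM in sub-cluster 3 and 2.53 to 8.91 CPM in sub-cluster 8, where Retnla was highest. The Ly6c2-high cells made up 8.82%, 5.31% and 10.8% of macrophages, and with shares held equal the treatment ratio remained 1.82. Outside macrophages, Chil3 was also called higher with treatment in FAP-like and dendritic-like cells. The part of free RNA in these calls and in the sub-cluster ratios was not tested.

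Chil3 UMIs were found in a lower share of the cells with a Retnla UMI than of the others, a difference given without an interval. Among thinned macrophages with a Retnla UMI, 1.01%, 3.73% and 5.22% also had a Chil3 UMI, against 6.47%, 7.81% and 13.6% of those without. Over the 33 points of sub-cluster and library with at least 50 cells, their log2(CPM + 1) levels had a Pearson correlation of -0.71, a description of points that share libraries and clustering. The closest relative Chil4 shared 275 of the 1629 windows of 50 bases of Chil3 and had 0, 0 and 1 UMIs in macrophages. Retnla shared no such window with Retnlg or Retnlb.

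Mrc1 (ENSMUSG00000026712, chr2:14229392-14332057, plus strand) encodes the mannose receptor CD206, an endocytic lectin of tissue macrophages. It was at 337, 396 and 461 CPM in macrophages, with ratios of 1.18 [1.16, 1.19] between ages and 1.16 [1.15, 1.18] between treatments. Old rMETRNL stood at 1.37 [1.35, 1.39] of young PBS, under the 1.5-fold limit. The level was 1102, 1399 and 1377 CPM in resident-type sub-cluster 3 and 1344, 1303 and 1555 CPM in sub-cluster 10, and 95.1 to 129 CPM in sub-cluster 4. The share of thinned macrophages with an Mrc1 UMI was 34.5%, 42.6% and 42.4%, against 0.83%, 1.68% and 1.35% of MuSC/myoblast-like cells, and before thinning it was 68.6%, 78.2% and 75.2% of macrophages. With shares of sub-clusters held equal the treatment ratio was 1.04, and in the age and treatment contrasts the only call within a sub-cluster was for treatment in cycling sub-cluster 6 (577, 469 and 754 CPM, ratio 1.61).

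Clec10a and Mgl2 encode the C-type lectins MGL1 and MGL2, which bind galactose-type sugars and lie side by side on chromosome 11, 18647 bases apart. Clec10a (ENSMUSG00000000318, chr11:70156197-70170834, plus strand) was at 87.0, 67.5 and 91.0 CPM in macrophages. The ratio between ages was 0.776 [0.752, 0.802] and the treatment ratio 1.35 [1.31, 1.39], so that old PBS was the lowest library. Under the stricter cell filter the age log2 ratio was -0.59 and called, against -0.37. The age ratio was below 1 in 9 of 11 sub-clusters, called lower in 3 and higher in sub-cluster 9, and the treatment ratio was above 1 in 9 of 11, called higher in 3 and lower in 1. Clec10a was highest in sub-clusters 3 (477, 396 and 436 CPM) and 10 (423, 416 and 610.3 CPM).

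Mgl2 (ENSMUSG00000040950, chr11:70130329-70137550, plus strand) differed from it in the place of old PBS. It was at 8.82 CPM [8.24, 9.43] for young PBS, 21.7 [20.8, 22.7] for old PBS and 16.3 [15.5, 17.0] for old rMETRNL, from 856, 2122 and 1808 UMIs. The age ratio was 2.46 [2.27, 2.67], the treatment ratio 0.749 [0.703, 0.798] and the ratio of old rMETRNL to young PBS 1.84 [1.70, 2.003]. In these summed levels old PBS was the highest library for Mgl2 and the lowest for its neighbour, but with per-cell CPM averaged the Clec10a age log2 ratio was 0.02, so that old PBS was no longer lowest. In thinned macrophages 1.43%, 4.32% and 2.80% of cells had an Mgl2 UMI, against 0%, 0.14% and 0.11% of FAP-like cells, where 0 of 1703 allows up to 0.176%, and before thinning 6.37%, 12.7% and 10.6% of macrophages did.

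The age difference of Mgl2 was present in most macrophage sub-clusters. The ratio was above 1 in 10 of 11 and called higher in 9, up to 5.09 in the interferon cells (3.97, 20.2 and 7.74 CPM), and was 0.788 in sub-cluster 9. The level was 97.3, 116 and 101 CPM in the Retnla-rich sub-cluster 8, 38.7, 85.02 and 55.7 CPM in sub-cluster 3 and 8.38, 39.4 and 18.2 CPM in the Ly6c2-high cells. The treatment ratio was below 1 in 10 of 11 sub-clusters and called lower in 5. With shares held equal the ratios were 2.30 for age and 0.634 for treatment.

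**Figure D5:**
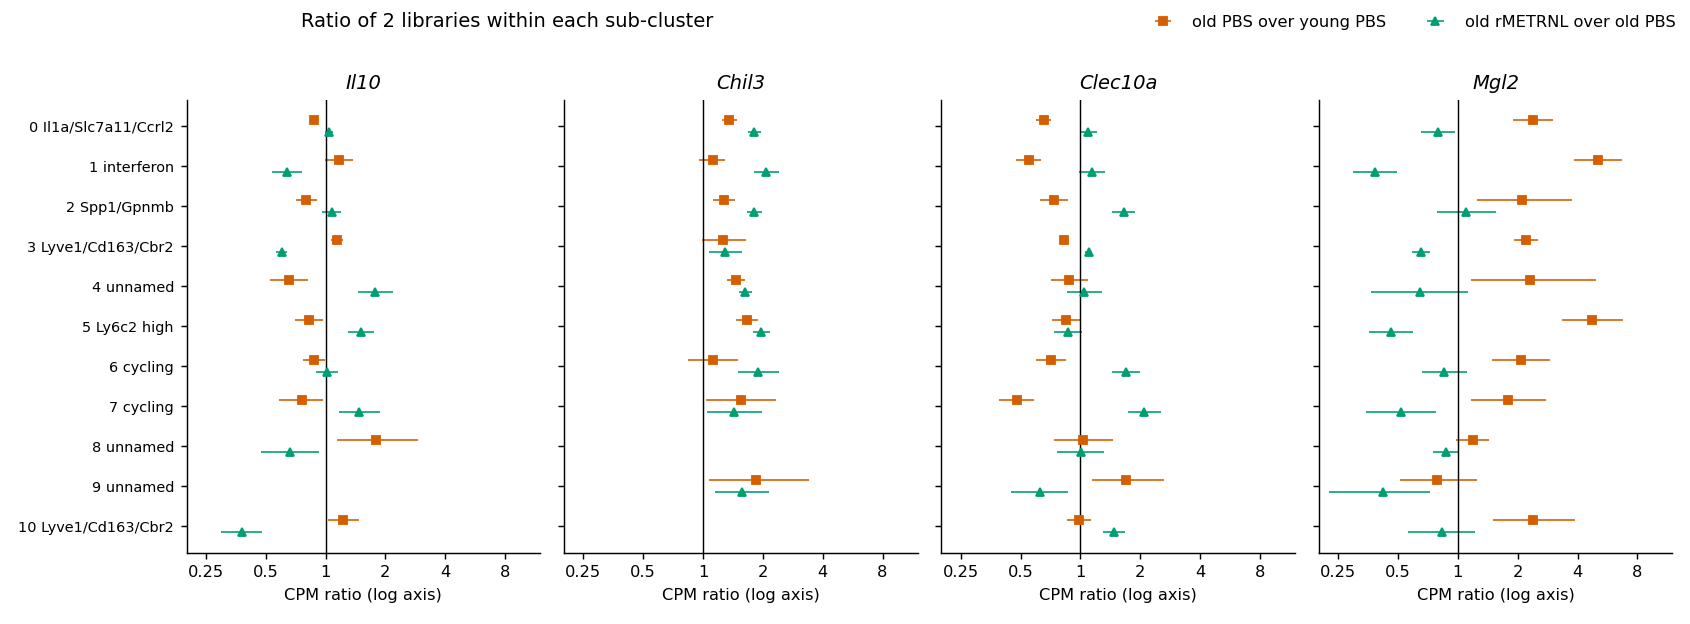
Ratio of CPM between libraries within each macrophage sub-cluster for Il10, Chil3, Clec10a and Mgl2, on a log axis with exact 95% intervals (counting error only). The Mgl2 age ratios lie above 1 in 10 of 11 sub-clusters and the Chil3 treatment ratios above 1 in 9 of 9, while the Il10 treatment ratios lie on both sides of 1, from 0.380 to 1.78.

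Dendritic-like cells, which also carry both lectins, showed the same order for Mgl2. It was at 43.4, 107 and 66.6 CPM there, with ratios of 2.47 [2.13, 2.85] between ages and 0.622 [0.547, 0.708] between treatments, and Clec10a was at 169, 156 and 176 CPM. In dendritic-like cells 4 members were called with age (Retnla, Mrc1 and Mgl2 higher, Il10 lower), where 10.4% of 9865 genes were, and 5 with treatment (Il10 and Chil3 higher, Retnla, Mrc1 and Mgl2 lower), against 8.39%. Levels of Il10, Retnla and Chil3 there were at most 14.3 CPM, and Mrc1 was at 29.2, 67.9 and 43.0 CPM. The 12 macrophage markers summed to 3895, 4818 and 3024 CPM in the same dendritic-like cells, and 8 of them were both higher in old PBS than in young PBS and lower in old rMETRNL than in old PBS, among them Apoe (1072, 1984 and 646 CPM) and C1qa (161, 187 and 77.3 CPM). The part of macrophage RNA in the calls of members in dendritic-like cells was not tested. Mgl2 was also at 21.4, 19.9 and 20.6 CPM in MuSC/myoblast-like cells, where 40.1%, 38.1% and 38.3% of unthinned cells had a UMI, and at 13.9 to 16.7 CPM in myocyte-like cells. Clec10a was at 1.83 to 2.10 CPM in the same MuSC/myoblast-like cells, and Mgl2 was at 0.294, 1.17 and 0.487 CPM in FAP-like cells of like depth. On 14, 37 and 23 UMIs, Mgl2 was called higher with age and lower with treatment in FAP-like cells. The 12 macrophage markers summed to 1426, 1445 and 1205 CPM there, and the part of macrophage RNA in these Mgl2 calls was not tested.

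The markers of conventional dendritic cells were read within macrophages beside the Mgl2 values. All 7 had UMIs in each library, and they summed to 7.55, 8.09 and 7.57 CPM. In the age contrast Cd209a and Xcr1 were called higher and Clec9a lower, and the median log2 ratio of the 7 was -0.11. Cd209a was at 1.63, 2.77 and 1.88 CPM, and the part of these markers in the Mgl2 result was not tested. Clec10a and Mgl2 shared 270 windows of 50 bases, 8.49% of the 3181 of Clec10a and 12.2% of the 2205 of Mgl2, so that reads in those windows cannot be assigned to either. In thinned cells, 40.7%, 39.3% and 44.3% of Mgl2-positive macrophages had a Clec10a UMI against 12.8%, 10.99% and 12.96% of the others.

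Of 14 other genes listed for alternative activation, 13 were measured in macrophages, with a median log2 ratio of 0.30 for age and 0.17 for treatment. Irf4, a transcription factor of this programme, was called higher with age (11.9, 23.0 and 16.8 CPM, ratio 1.92), as was Il1rn, the interleukin 1 receptor antagonist (319, 492 and 329 CPM, ratio 1.54). Cd163, a haemoglobin scavenger receptor, was called higher with treatment (14.0, 17.2 and 28.7 CPM, ratio 1.67). The chemokine Ccl17 had 0, 83 and 210 UMIs, called higher in both contrasts. Ccl24 was at 22.8, 25.7 and 38.2 CPM and was called higher only in old rMETRNL over young PBS (1.68), and Cd36 was at 442, 654 and 608 CPM without a call.

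In a comparison list of 14 inflammatory genes, 13 were measured, with median log2 ratios of -0.03 for age and -0.02 for treatment. The cytokines Il1a (13.7, 28.1 and 17.9 CPM, age ratio 2.05) and Il6 (2.65, 6.60 and 4.00 CPM, 2.49) were called higher with age and lower with treatment (0.638 and 0.606). The interferon-induced chemokine Cxcl10 was called lower with age and higher with treatment (364, 144 and 262 CPM, ratios 0.396 and 1.82). Nos2 (60, 36 and 50 UMIs) and Il23a (63, 37 and 50 UMIs) were called lower with age, and Il1b was at 443, 483 and 371 CPM without a call.

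The genes most like each member were sought by Pearson correlation of log2(CPM + 1) over the 33 points, among 10731 genes with at least 500 UMIs. The points come from 3 libraries and 1 clustering and are not independent, and the values describe likeness only. Il10 was followed by the cytokine genes Csf3 (0.905) and Tnf (0.893) and by Zfp36 (0.891), which encodes an mRNA decay factor. Mrc1 was followed by Etv1 (0.959), Ednrb (0.953) and Dab2 (0.947), and Clec10a by Cebpd (0.938), Lifr (0.932) and Tslp (0.928). Il4ra was followed by Ppp1r15a (0.931), Batf2 (0.913) and Arhgef3 (0.911), and Il10ra by Gm43329 (0.899), Calhm6 (0.885) and Aif1 (0.881).

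Chil3 was followed by the monocyte marker Ly6c2 (0.850), Gm47664 (0.810) and Sys1 (0.799), and Retnla by Cd81 (0.813), Dcbld2 (0.791) and Traf5 (0.783). Mgl2 was followed by Mbtd1 (0.835), Irf4 (0.831) and the interleukin 33 receptor Il1rl1 (0.818). Il10rb was followed by Bri3 (0.872), Mdfic (0.857) and Pik3ap1 (0.803), and Il13ra1 by Gm47754 (0.912), 2410006H16Rik (0.891) and Zfas1 (0.888). Among the members, the highest correlations were between Clec10a and Mrc1 (0.81), Clec10a and Il4ra (0.81) and Mgl2 and Retnla (0.80).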

How the data were processed

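Damaged tibialis anterior muscle of 3 groups was digested to single cells and sequenced on the 10x Genomics droplet platform, 1 library for each group and all on the same flow cell per the labels. The values used are UMI counts per gene and barcode, which the authors deposited as filtered Cell Ranger matrices; the file headers name version 5.0.0, the submitters' processing notes 5.0.0 and 3.1.0, and the build is mm10. Each matrix column was assigned to its sample by the file, and groups came from the labels.

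Cells were kept from 500 detected genes upwards if fewer than 10% of their UMIs were mitochondrial. The automatic doublet threshold marked 0 cells in each library, so the 9.73%, 10.1% and 11.2% of barcodes with the highest doublet scores were removed (0.8% per 1000 barcodes). Cells were scaled to 10000, and 2000 variable genes, without the 10 members, gave 30 principal components, a graph of 20 neighbours and Leiden clusters at resolution 0.8 (0.5 within macrophages), in scanpy 1.11.5 with leidenalg 0.10.2. Clusters were named "-like" from at least 3 detected markers; the rule for conflicting markers was set after the cluster tables were seen. UMIs were summed over each class, sub-cluster and library and divided by the total (CPM). Free RNA was not subtracted.

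With 1 library per group there is no test. Levels carry exact Poisson intervals, shares exact Clopper-Pearson intervals and ratios exact intervals conditional on the sum of 2 counts, all at 95% and for counting error only. Ratios were called past 1.5-fold with an interval leaving out 1, over genes with at least 50 UMIs. Ratios with sub-cluster shares held equal weight each sub-cluster alike in all libraries. For shares of positive cells each cell was thinned to 2000 UMIs, and shallower cells were left out. Named genes were all members, the genes called in any list, some member paralogs, and the 3 genes most like each member. Genes at the highest level of the signalling, regulator, ligand, activation and inflammatory lists were named too. The result of 1 listed gene is not reported here. The calculation was checked on simulated counts. The members and gene lists were chosen with earlier results of these data known. Gene positions are from GENCODE M21 (GRCm38) and promoters from RefSeq (GRCm38.p6).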

Additional observations from a re-analysis of the deposited data

How the results depend on the processing

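No paired analysis was possible because each group is 1 library, and for the same reason no replicate could be left out. The number of members called in the age contrast was 2 and became 1 with doublet calls kept (Retnla was lost) and 5 at a lower fold limit (0.32 on the log2 scale; Il10ra, Retnla, Chil3, Clec10a and Mgl2, where 25.2% of genes were called). In the treatment contrast it was 1 and became 4 with the mean of per-cell CPM (Il10, Retnla, Chil3 and Mgl2, against 9.82%) and 5 at that lower limit (Il10, Retnla, Chil3, Clec10a and Mgl2, against 20.3%). Under every other choice of filter, clustering and scaling tried, and with shared barcodes left out, a step added after seeing the data, the counts were 2 to 3 and 1, the 3 with the stricter cell filter, which added Clec10a. The cause of these changes was not tested. Mgl2 with age (log2 ratio 1.30, range 1.09 to 1.63) and Chil3 with treatment (0.87, range 0.64 to 1.06) were called under all 10 alternatives that give a call, and Retnla with age (0.66, range 0.34 to 1.23) under 9 of 10. The Il10 treatment log2 ratio ran from -0.64 to -0.05. The ends 0.64 for Chil3 and -0.05 for Il10 are among cells with fewer than 10 UMIs of the gene, chosen by the values compared. At sub-clustering resolution 1.0 the name of the highest sub-cluster differed for Il10, Il10ra and Il13ra1. Il10 was then among the leading genes of a resident-type (Lyve1, Cd163 and Cbr2) sub-cluster and not of the Il1a, Slc7a11 and Ccrl2 sub-cluster. In the main clustering Il10 was among those of the Il1a, Slc7a11 and Ccrl2 sub-cluster and of neither resident-type sub-cluster. Among ratios without a call, leaving aside the removal of cells with 10 or more UMIs of the gene (which gave -0.17 for Il10 with age and -0.09 for Mrc1 with treatment, against 0.10 and 0.22), the direction turned for Il10 with age (0.10; -0.07 with shares held equal), Clec10a with age (-0.37, highest 0.02) and Il10ra with treatment (0.19; -0.0027 with shares held equal), for Il10rb with age (0.04, lowest -0.03), and, in old rMETRNL over young PBS, for Retnla (0.20, lowest -0.35), Clec10a (0.07, lowest -0.18) and Il4ra (0.03, lowest -0.0058). The Il4, Il13, Il5 and Il25 values rest on few UMIs in few cells, and each contrast rests on 1 library per group.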

Other observations

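Cells with at least 3 UMIs of Mcpt8 or Cpa3, genes of basophils and mast cells, were counted after the type 2 cytokine values had been seen. They numbered 10, 5 and 7 in the young PBS, old PBS and old rMETRNL libraries. They held 90, 5 and 1 of the 196, 16 and 39 Il4 UMIs of kept cells and 27, 2 and 0 of the 94, 72 and 2 Il13 UMIs. In young PBS 2 of them lay in the B-like cluster of 4 cells, where 80 of the Il4 UMIs were found.

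Il10 in the glial-like class had 0, 4 and 21 UMIs in the same order, from 39, 95 and 62 cells. The level was 59.0 CPM [36.5, 90.2] in old rMETRNL, and the UMIs there came from 2 cells. The 12 macrophage markers summed to 9708, 6872 and 6365 CPM in glial-like cells, and the part of macrophage RNA in these Il10 UMIs was not tested.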
